A study of Mus musculus with 2 samples.

Results

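The genes described here encode the core of TGF-beta signalling: the ligands Tgfb1, Tgfb2 and Tgfb3, the receptors Tgfbr1, Tgfbr2 and Tgfbr3, and the intracellular proteins Smad2, Smad3, Smad4 and Smad7. They were taken by gene symbol from both count tables, and all 10 were found among the 50559 genes listed. The RNA came from live GFP-positive cells sorted from digested dorsal skin of mice with the genotype Polr2b.fl.fl.GFP; K14Cre collected on postnatal day 21, when hair follicles rest (telogen). Cre was driven by the keratin 14 promoter, which is active in basal epidermis and in the lineages that arise from it, including the follicle. Polr2b encodes a subunit of RNA polymerase II, and every sample carried the modified allele. Its 2 replicate libraries make up 1 group, with no untreated or wild-type group beside it, and the stated purpose was to set steady-state RNA beside nascent RNA. The comparisons are therefore between members within a library, between the members and the other genes, and between the libraries.

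TGF-beta ligands are secreted in a latent form, bound to their own propeptide, and must be released before they can act. The active ligand binds the type II receptor Tgfbr2, which then phosphorylates the type I receptor Tgfbr1. Tgfbr1 phosphorylates Smad2 and Smad3, which enter the nucleus with Smad4 and regulate transcription there. Tgfbr3, or betaglycan, is a co-receptor that presents ligand, Tgfb2 above all, and Smad7 is a feedback inhibitor that acts at the receptor. In skin the pathway is known for restraining keratinocyte proliferation and, in the mouse follicle, for a role of Tgfb2 in the activation of stem cells at the end of telogen.

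The RefSeq promoter table (build GRCm38.p6) held a start region for 5 of the 10 genes. The 250 bases before the start are shown for the ligand and the receptor with the highest and the lowest RNA level per length, 5′ to 3′ on the gene's own strand. The windows shown differ in their motif matches, and those of Tgfb1 and Tgfbr1 are alike in G and C content. Capitals mark matches, on either strand, to the GC box GGGCGG, to CCAAT, to TATAAA and to the Smad motif CAGAC. The windows lie at chr7:25686752-25687001 on the plus strand for Tgfb1, chr1:186705990-186706239 on the minus strand for Tgfb2, chr9:116175364-116175613 on the minus strand for Tgfbr2 and chr4:47352972-47353221 on the plus strand for Tgfbr1, for which the table lists 2 starts and the one given first there was used.
Tgfb1: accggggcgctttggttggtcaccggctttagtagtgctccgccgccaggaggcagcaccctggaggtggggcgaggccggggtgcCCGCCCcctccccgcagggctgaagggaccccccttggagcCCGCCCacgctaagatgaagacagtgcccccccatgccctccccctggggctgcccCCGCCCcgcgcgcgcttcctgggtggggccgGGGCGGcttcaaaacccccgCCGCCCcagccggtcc
Tgfb2: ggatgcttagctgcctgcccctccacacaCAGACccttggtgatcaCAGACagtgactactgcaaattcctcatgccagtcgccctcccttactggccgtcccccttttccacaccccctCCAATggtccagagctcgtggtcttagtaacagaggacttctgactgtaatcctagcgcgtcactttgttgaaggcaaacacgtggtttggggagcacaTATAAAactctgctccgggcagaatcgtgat
Tgfbr2: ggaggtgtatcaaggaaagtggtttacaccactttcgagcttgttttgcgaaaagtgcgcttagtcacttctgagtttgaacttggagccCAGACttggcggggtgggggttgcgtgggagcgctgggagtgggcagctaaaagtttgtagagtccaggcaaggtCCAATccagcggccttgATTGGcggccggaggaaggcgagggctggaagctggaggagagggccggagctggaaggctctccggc
Tgfbr1: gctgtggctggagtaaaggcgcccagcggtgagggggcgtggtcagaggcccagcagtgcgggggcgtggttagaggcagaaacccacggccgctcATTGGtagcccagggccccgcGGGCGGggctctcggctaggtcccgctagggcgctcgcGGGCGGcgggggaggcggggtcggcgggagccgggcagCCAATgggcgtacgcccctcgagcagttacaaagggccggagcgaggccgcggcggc

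The window of Tgfb1 was 75.2% G and C and held 5 GC boxes and none of the other motifs. That of Tgfb2 was 53.6% G and C, near the median of 52.4% over 32841 promoters, and held TATAAA once, CCAAT once, CAGAC 2 times and no GC box. The Tgfbr2 window, at 58.4% G and C, held 2 matches to CCAAT and 1 to CAGAC, and the Tgfbr1 window, at 74.8%, held 2 GC boxes and 2 matches to CCAAT. Of all promoters, 32.7% held GGGCGG, 33.9% held CCAAT, 12.4% held TATAAA and 42.2% held CAGAC in the same window on either strand. The AP-1 motif TGANTCA, found in 6.75% of promoters, had no match in the 4 windows. These are matches of letters and were not set against any measure of binding.

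The unit for a single gene is CPM, its counts per 1000000 counts of the same library. Genes are set beside each other as CPM per kilobase of the deposited gene length. Replicate 1 held 36692204 counts and replicate 2 held 33489967, and 15833 genes reached 1 CPM in both, which is 36.7 counts in replicate 1 and 33.5 in replicate 2. The modified gene Polr2b had 88.3 CPM (3241 counts) in replicate 1 and 78.4 CPM (2627 counts) in replicate 2, with all forms of the allele counted together. The libraries stand apart in sex-linked RNA. Xist, the RNA of the inactive X, had 112587 counts in replicate 1 against 11 in replicate 2. The Y-linked genes Uty, Kdm5d and Ddx3y were at 0 counts in replicate 1 against 1113 to 2394 in replicate 2, and Eif2s3y had 1 count against 1378. By these counts, replicate 1 held RNA of female cells and replicate 2 RNA of male cells. Neither the sex nor the number of animals is in the labels. In every ratio of the libraries below, sex cannot be told apart from other differences between them, which may be technical in part. The smallest p of an exact two-sided sign-flip test over 2 libraries is 0.5, so no such test was made of a level.

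The keratinocyte label was checked against markers. All 10 basal keratinocyte genes passed 10 CPM in both libraries, led by the keratins Krt5 at 5123 ± 1593 CPM and Krt14 at 2639 ± 759 CPM (SD, n = 2 here and below), and so did all 8 spinous genes, led by Krt10 and Krt1. All 10 genes of dermal fibroblasts, led by the collagens Col1a1 at 4104 ± 2099 CPM and Col3a1 at 3352 ± 1476 CPM, and all 10 of macrophages, led by Mrc1 at 2064 ± 93.5 CPM and Lyz2 at 1702 ± 449 CPM, passed it too. The sorted RNA thus held transcripts of epithelial, fibroblast and macrophage lists, and the counts do not show which of these cells made the TGF-beta transcripts. In bulk RNA, fewer cells of a type and less RNA per cell cannot be told apart.

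All 10 members were expressed at 10 CPM or more in both libraries. Per kilobase of deposited length, the type II receptor Tgfbr2 stood highest at 97.3 ± 4.47 and the ligand Tgfb1 followed at 70.8 ± 2.55 CPM per kilobase. Both lay far up the range of the detected genes, at the 97.0 and 95.8 percentiles. The co-receptor Tgfbr3 stood at 23.7 ± 6.58 CPM per kilobase and Smad4 at 17.8 ± 1.21. A middle group followed, with Smad3 at 8.59 ± 0.514, Tgfbr1 at 7.01 ± 1.65, Smad2 at 6.13 ± 0.0339, Tgfb3 at 5.88 ± 1.82 and Smad7 at 5.35 ± 0.137 CPM per kilobase. Tgfb2 stood lowest at 1.80 ± 0.470 CPM per kilobase, at the 26.8 percentile. From Tgfbr2 down to Smad3 and on to Tgfbr1, no neighbours in this order had overlapping values. Tgfbr1 overlapped with Smad2, Smad2 with Tgfb3 and Tgfb3 with Smad7, so the order of these 4 is not resolved, and Tgfb2 lay below Smad7 without overlap. The order also depends on the gene length. With the longest GENCODE M21 transcripts, 3 of the 10 members kept their rank, Tgfb1 (60.5 CPM per kilobase) stood above Tgfbr2 (57.6) with overlapping values, Smad4 (40.1) stood above Tgfbr3 (23.7) and Smad2 stood above Smad3. Tgfb2 was lowest with either length.

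**Figure D1:**
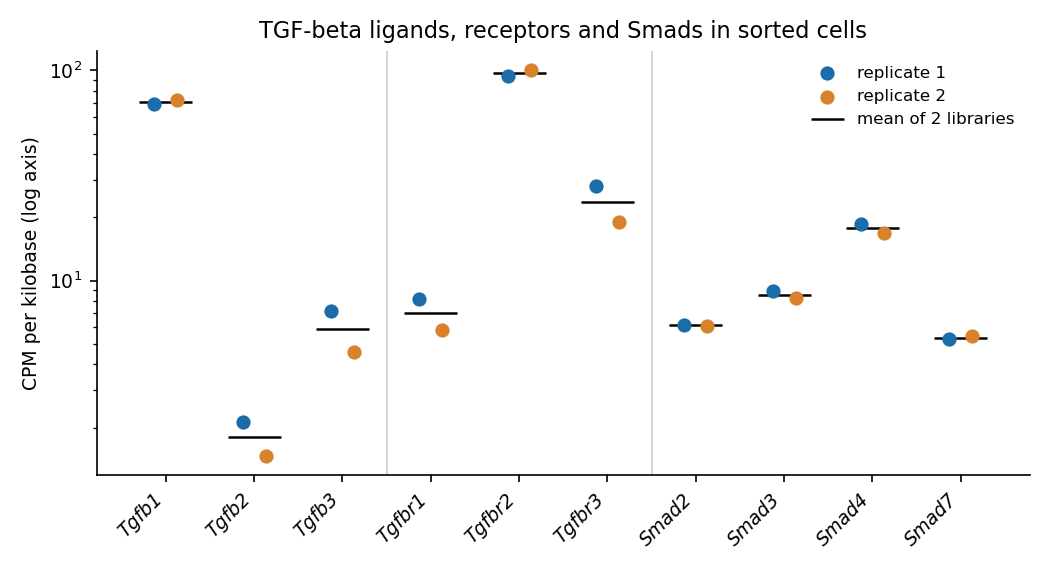
CPM per kilobase of deposited gene length (log axis) of the 10 members in replicate 1 (blue) and replicate 2 (orange), with a bar at the mean of the 2 libraries; grey lines part ligands, receptors and Smads. Tgfbr2 (94.2 and 100.5) and Tgfb1 (69.0 and 72.6) lie well above the rest, and Tgfb2 (2.13 and 1.46) lies lowest.

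Among the ligands, Tgfb1 made up most of the RNA. It had 152 CPM (5562 counts) in replicate 1 and 159.5 CPM (5342 counts) in replicate 2. Tgfb3 had 24.3 CPM (891 counts) in replicate 1 and 15.6 CPM (521 counts) in replicate 2. Tgfb2, the ligand with a known role in follicle stem cell activation in the mouse, had 18.2 CPM (666 counts) in replicate 1 and 12.5 CPM (418 counts) in replicate 2. Tgfb1 thus lay above both other ligands in each library, with no overlap. Per length, Tgfb1 exceeded Tgfb2 by a log2 difference of 5.02 in replicate 1 and 5.63 in replicate 2 (5.32 ± 0.43), or 40.1-fold, and exceeded Tgfb3 by 3.62 ± 0.51, or 12.3-fold. Tgfb3 exceeded Tgfb2 by 1.70 ± 0.07, or 3.25-fold. Of the summed ligand RNA per length, Tgfb1 held 88.1% in replicate 1 and 92.3% in replicate 2, Tgfb3 held 9.16% and 5.84%, and Tgfb2 held 2.72% and 1.86%. The sizes depend on the gene length used. With the longest GENCODE M21 transcript in place of the deposited length, the difference of Tgfb1 over Tgfb2 was 4.36, or 20.5-fold, and that of Tgfb3 over Tgfb2 was 0.97, or 1.95-fold.

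Among the receptors, Tgfbr2 was far more abundant than its signalling partner Tgfbr1. Tgfbr2 had 451 CPM (16546 counts) in replicate 1 and 481 CPM (16115 counts) in replicate 2. Tgfbr1, the type I receptor kinase, had 52.5 CPM (1925 counts) in replicate 1 and 37.5 CPM (1256 counts) in replicate 2. Tgfbr3 had 173 CPM (6334 counts) in replicate 1 and 116 CPM (3884 counts) in replicate 2. The 3 receptors thus kept the same order, Tgfbr2 above Tgfbr3 above Tgfbr1, in both libraries. Per length, Tgfbr2 exceeded Tgfbr1 by a log2 difference of 3.53 in replicate 1 and 4.10 in replicate 2 (3.82 ± 0.41), or 14.1-fold. With the longest GENCODE M21 transcript, which is 8092 bases for Tgfbr2 against a deposited 4788, the difference was 2.90, or 7.47-fold. Tgfbr3 lay below Tgfbr2 by a log2 difference of -2.07 ± 0.47, with -1.73 in replicate 1 and -2.40 in replicate 2, and of -1.31 with the longest GENCODE M21 transcripts. Tgfbr2 held 72.1% of the summed receptor RNA per length in replicate 1 and 80.2% in replicate 2, and Tgfbr1 held 6.25% and 4.66%. The ligands summed to 78.5 ± 0.257 CPM per kilobase and the receptors to 128 ± 3.76, a log2 difference of ligands over receptors of -0.71 ± 0.05.

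Each of the 4 Smads had similar levels in both libraries. Smad2, a substrate of the type I receptor, had 87.2 CPM (3200 counts) in replicate 1 and 86.5 CPM (2898 counts) in replicate 2. Smad3, the other substrate, had 49.5 CPM (1816 counts) in replicate 1 and 45.5 CPM (1523 counts) in replicate 2. Smad4, the shared partner, had 142 CPM (5217 counts) in replicate 1 and 129 CPM (4324 counts) in replicate 2. The feedback inhibitor Smad7 had 23.4 CPM (857 counts) in replicate 1 and 24.2 CPM (811 counts) in replicate 2, the lowest CPM of the 4 Smads in both libraries. Per deposited length, Smad4 held the largest share of the Smad RNA, 47.8% in replicate 1 and 46.1% in replicate 2. It exceeded Smad2 by a log2 difference of 1.53 ± 0.09, or 2.90-fold. With the longest GENCODE M21 transcripts Smad4 exceeded Smad2 3.73-fold, and without scaling by length 1.56-fold. Smad2 and Smad3 together exceeded Smad7 by a log2 difference of 1.46 ± 0.09 per deposited length, or 2.75-fold. The order of Smad3 and Smad2 is not settled by these data. Smad3 exceeded Smad2 by a log2 difference of 0.48 ± 0.08 with the deposited lengths, but the difference was -0.20 ± 0.08 with the longest GENCODE M21 transcripts and -0.87 ± 0.08 without any scaling by length. The deposited length of Smad2 was 14167 bases and its longest GENCODE M21 transcript 8089 bases.

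**Figure D2:**
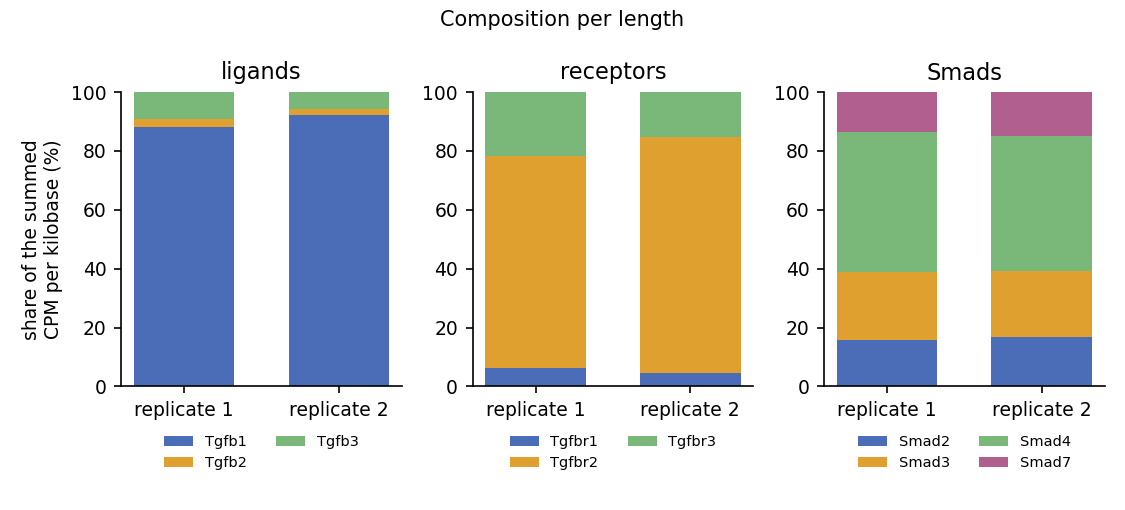
Share of the summed CPM per kilobase (%) held by each member among the ligands, the receptors and the Smads, in replicate 1 (left bar) and replicate 2 (right bar) of each panel. Tgfb1 holds 88.1% and 92.3% of the ligands, Tgfbr2 72.1% and 80.2% of the receptors and Smad4 47.8% and 46.1% of the Smads.

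Between the libraries, the members fell into a set that was higher in replicate 1 and a set that was nearly even. The ratio of each gene, replicate 1 over replicate 2, was set against the ratio of the library totals in a two-sided exact binomial test, with Benjamini-Hochberg adjustment over the 23690 genes with 10 or more counts. This test includes counting error only and compares these libraries, not conditions. Of the 10 members, 6 were called higher and 2 lower in replicate 1, beside 27.2% higher and 16.9% lower among all genes tested, 44.1% in all. Among the 9920 genes at a mean of 10 CPM or more, the level that every member reached, 64.8% were called, and 35.6% of the 9920 were called higher in replicate 1. The median log2 ratio was 0.13 for the members, 0.08 for all genes tested and 0.02 for the genes at 10 CPM or more.

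The higher set held 2 ligands and 2 receptors. Tgfb3 was 1.56-fold higher in replicate 1 (95% interval 1.40 to 1.74, adjusted p = 3.26e-15, exact binomial test) and Tgfb2 1.45-fold higher (1.28 to 1.65, adjusted p = 9.76e-09). Tgfbr3 was 1.49-fold higher (1.43 to 1.55, adjusted p = 4.62e-85) and Tgfbr1 1.40-fold higher (1.30 to 1.50, adjusted p = 1.47e-19). These 4 had log2 ratios of 0.48 to 0.64, above the upper quartile (0.21) and below the 95th percentile (0.67) of the genes at a mean of 10 CPM or more. The other 6 members had log2 ratios between -0.09 and 0.14. Smad4 and Smad3 were called higher in replicate 1 at 1.10-fold and 1.09-fold (adjusted p = 1.44e-05 and 0.0365). Tgfb1 and Tgfbr2 were called lower at ratios of 0.950 and 0.937 (adjusted p = 0.0205 and 3.23e-08). Smad2 (ratio 1.01, 0.958 to 1.06, adjusted p = 0.857) and Smad7 (0.964, 0.875 to 1.06, adjusted p = 0.594) did not pass the exact binomial test.

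**Figure D3:**
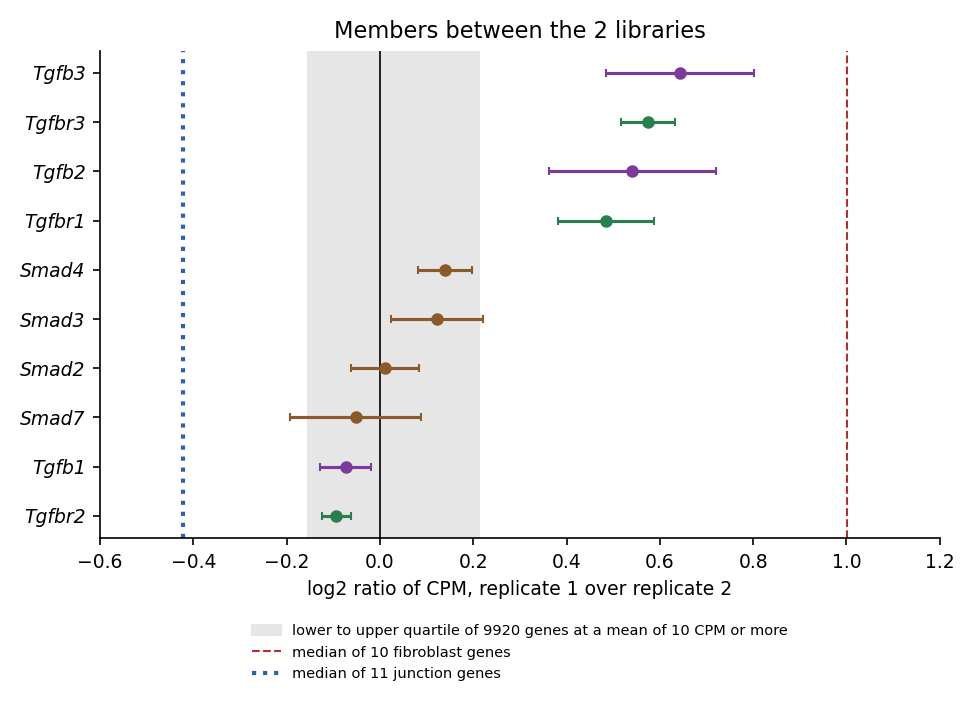
Log2 ratio of CPM, replicate 1 over replicate 2, of each member with its exact 95% interval for counting error; purple marks ligands, green receptors and brown Smads. Tgfb3, Tgfbr3, Tgfb2 and Tgfbr1 lie at 0.48 to 0.64, to the right of the grey band (lower to upper quartile of the genes at a mean of 10 CPM or more), and the other 6 lie inside it; the lines mark the medians of the fibroblast list (1.00) and the junction list (-0.42).

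A test that allows for spread between libraries has no independent replicates here. edgeR's exact test was run as 1 library against 1, with a common dispersion (a coefficient of variation of 22.9%) estimated from the same 2 libraries, so the differences tested also enlarge the spread they are set against. In it the log2 ratios were the same to 2 decimals, none of the 10 members was called, none had an unadjusted p under 0.05, and 69 of the 23690 genes were called (0.291%), beside 1844 at an unadjusted p under 0.05. Scaling the libraries to the summed counts of 11 epithelial junction genes instead of their totals moved every ratio by 0.39 (log2). All 10 members were then called higher in replicate 1, Tgfb1 at 0.32 and Tgfbr2 at 0.30 included, but so were 61.4% of all genes tested, with 3.28% lower. Within the nearly even set, the signs of Tgfb1, Tgfbr2 and Smad7 thus turned with this scaling, which moves all genes alike. Smad2, Smad3 and Smad4 kept their sign under it.

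Marker lists of other cells moved between the libraries too. The binomial test called 35.6% of all genes at a mean of 10 CPM or more higher in replicate 1 and 29.2% lower. The fibroblast list had 10 of 10 genes higher in replicate 1 and a median log2 ratio of 1.00. Its summed level was 13374 CPM in replicate 1 and 6578 CPM in replicate 2. The endothelial list summed to 79.5 and 51.1 CPM in replicates 1 and 2 and the mural cell list to 398 and 297 CPM, with medians of 0.58 and 0.93 and Tagln at 0 counts in replicate 1. The macrophage list, with 2 genes called higher and 5 lower in replicate 1, summed to 8505 and 9356 CPM with a median of -0.03. The T cell list summed to 38.8 and 36.3 CPM, nearly all of it Cd4, which macrophages can also express. Foxp3 was next, and Trac was at 0 counts in both libraries. The endothelial list was led by Cdh5 and Pecam1, the mural list by Cspg4 and Notch3 (also in the spinous list), and the melanocyte list, by Pmel and Dct, at 31.1 and 17.3 CPM. Epithelial lists split. The basal list had 1 gene higher and 9 lower in replicate 1, the spinous list 0 and 8 and the junction list, led by Dsp and Perp, 2 and 9, while the bulge list, led by Krt15 and Runx1, had 8 higher and 1 lower. The bulge sum went the other way, at 3477 CPM in replicate 1 against 4719 CPM in replicate 2, since Krt15, the 1 lower gene, held most of it (2415 against 3868 CPM). The sums of the basal (11771 against 16102 CPM), spinous (4320 against 7623 CPM) and junction lists (9080 against 11920 CPM) were lower in replicate 1 too. Dermal papilla genes, led by Alx4 and Fgf7, were near the detection level, with a sum over 7 genes of 19.7 CPM in replicate 1, against 14.96 CPM in replicate 2. The part of these lists in the ratios of the members was not tested.

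**Figure D4:**
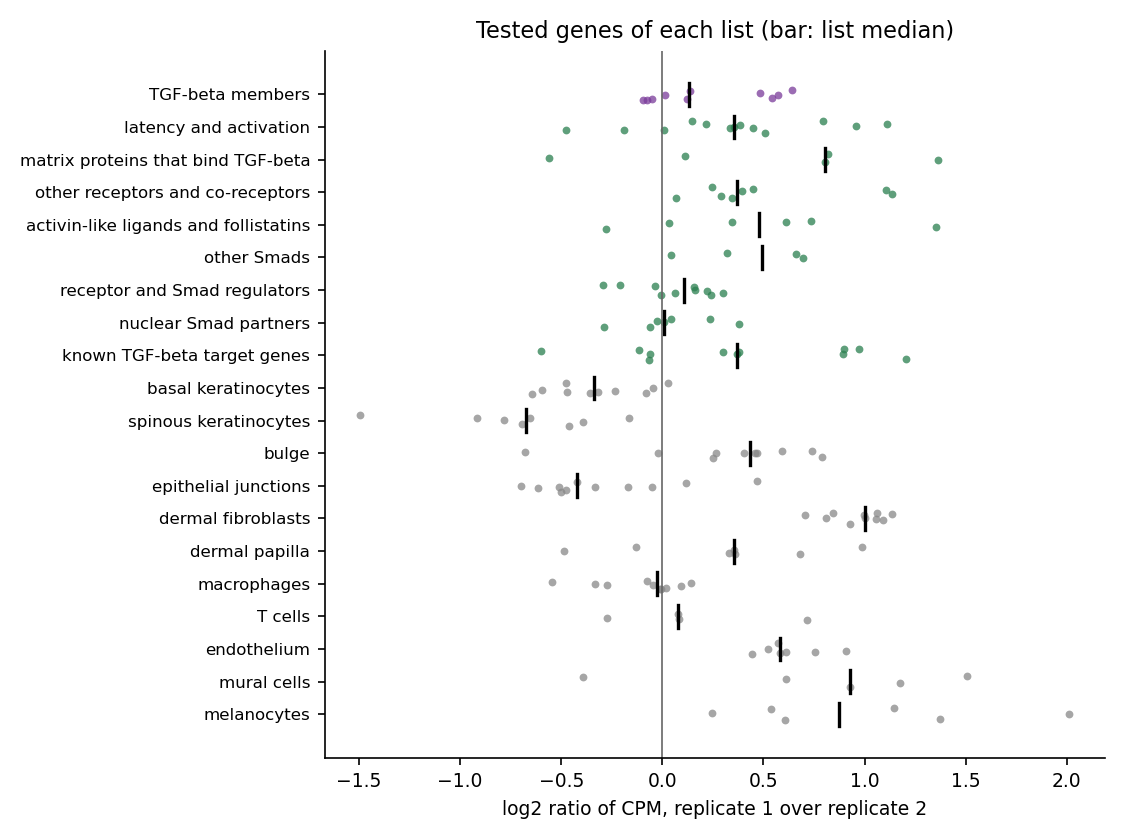
Log2 ratio of CPM, replicate 1 over replicate 2, of each tested gene of the members (purple), of 8 lists of other pathway genes (green) and of 11 cell type lists (grey), with a bar at the list median; vertical scatter within a row has no meaning. The median of the members lies at 0.13, the fibroblast list at 1.00 and the spinous list at -0.67.

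The wider pathway was measured in 8 lists of 64 different genes, of which 59 reached 1 CPM in both libraries. Of the 62 genes tested, 38 were higher and 9 lower in replicate 1 by the binomial test and 15 were not called, or 61.3% and 14.5% beside the 27.2% and 16.9% of all genes. Among the 48 at a mean of 10 CPM or more, 30 were higher and 9 lower (62.5% and 18.8%), beside 35.6% and 29.2% of all genes at that level. Over the 62 tested, the median log2 ratio was 0.27, and edgeR's exact test called none, with 6 at an unadjusted p under 0.05.

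Genes that hold or release latent TGF-beta were all detected. Thrombospondin 1 (Thbs1), an activator of latent TGF-beta, was the highest of the 13, with 1819 CPM in replicate 1 and 2528 CPM in replicate 2. The latent TGF-beta binding protein Ltbp4 had 281 ± 46.0 CPM and the microfibril protein fibrillin 1 (Fbn1), also a fibroblast product, had 456 ± 206 CPM. Per length the lowest was the integrin subunit Itgb3, at 6.05 ± 2.31 CPM. Of the 13 genes, 10 were higher and 2, Thbs1 and the protease gene Furin, lower in replicate 1. Among all genes tested, 27.2% were called higher and 16.9% lower, and among those at a mean of 10 CPM or more, 35.6% and 29.2%. The integrin subunit Itgb8, which with the alpha v subunit activates latent TGF-beta, differed most, with 50.1 CPM in replicate 1 and 23.2 CPM in replicate 2, a log2 ratio of 1.11. Matrix proteins that bind TGF-beta were led by decorin (Dcn) at 404 ± 156 CPM, biglycan (Bgn) at 177 ± 68.9 CPM and asporin (Aspn) at 32.3 ± 20.1 CPM, and Emilin1 was lowest per length at 9.86 ± 0.553 CPM. Of these 5, 3 were higher and 1 lower in replicate 1, with Aspn at a log2 ratio of 1.36 and a list median of 0.81.

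Related receptors and ligands were all below Tgfbr2 and Tgfb1 per length, with follistatin highest at 30.9 CPM per kilobase. The activin receptors Acvr1b and Acvr2a had 77.3 ± 2.49 and 90.0 ± 10.8 CPM and the endothelial co-receptor endoglin (Eng) 47.9 ± 10.4 CPM, while Acvr1c had 29 counts in replicate 1 against 12 in replicate 2. The pseudoreceptor Bambi, which lacks kinase activity and blocks signalling, had 11.8 CPM in replicate 1 and 5.37 CPM in replicate 2, a log2 ratio of 1.14. Of the 8 genes, 6 were higher and none lower in replicate 1, beside 27.2% higher and 16.9% lower among all genes tested. Among activin-like ligands and follistatins, follistatin (Fst), which binds activins, led at 89.4 ± 31.4 CPM, followed per length by the ligand subunit Inhbb at 32.7 ± 5.51 CPM and Fstl3 at 6.01 ± 0.096 CPM. Inhba had 110 counts in replicate 1 against 39 in replicate 2, a log2 ratio of 1.35, and Mstn had 3 and 6 counts, too few to test. Of the 6 tested, 4 were higher and none lower in replicate 1.

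The other Smads split into an abundant and a scarce pair. Smad1 and Smad5, which BMP receptors phosphorylate, had 76.2 ± 1.67 and 128 ± 19.9 CPM, or 23.6 and 17.3 CPM per kilobase, while Smad9 had 8.49 ± 2.72 CPM and the inhibitor Smad6 7.09 ± 2.38 CPM. Of these 4, Smad5, Smad6 and Smad9 were higher in replicate 1 and Smad1 was not called. Genes that regulate receptors and Smads were all at 10 CPM or more in both libraries. They were led per length by Fkbp1a, whose product binds the type I receptor, at 77.5 ± 6.20 CPM, by Strap at 67.8 ± 0.207 CPM and by Tgfbrap1 at 88.8 ± 9.02 CPM, with the ubiquitin ligase Nedd4l lowest at 55.9 ± 0.988 CPM. Of 10, 5 were higher and 2 lower in replicate 1. Among all genes at a mean of 10 CPM or more, 64.8% were called, 35.6% higher and 29.2% lower. Of the 8 pathway lists, the nuclear Smad partners had the median nearest to 0, with 3 genes higher and 2 lower in replicate 1 of 7 tested and a median log2 ratio of 0.01. The coactivator Crebbp had 432 ± 8.90 CPM, the corepressor Ski 212 ± 0.674 CPM and the corepressor Tgif1 160 ± 2.11 CPM, and Foxh1 had 2 counts in replicate 1 against 7 in replicate 2.

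Genes known from other systems as TGF-beta targets were present at very different levels. Tgfbi, a secreted adhesion protein named for its induction by TGF-beta, had 621 CPM in replicate 1 and 674 CPM in replicate 2. The cell cycle inhibitor Cdkn1a had 256 CPM in replicate 1 against 388 CPM in replicate 2. The matricellular gene Ccn2 had 418 CPM in replicate 1 and 181 CPM in replicate 2. Tgfbi and Cdkn1a were thus lower and Ccn2 higher in replicate 1 by the binomial test, with a log2 ratio of 1.21 for Ccn2. Tmeff1, described in the mouse follicle as a target of Tgfb2, was lowest per length, with 71 counts in replicate 1 and 50 in replicate 2. Of the 11 targets, 6 were higher, 2 lower and 3 not called. The share called was 44.1% among all genes tested and 64.8% among those at a mean of 10 CPM or more. Several of them also respond to other signals, and the counts do not show which signal set their level.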

How the data were processed

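RNA was rRNA-depleted and sequenced as paired reads of 150 bases, per the labels' protocols. The deposited counts, 1 per gene with a gene length in bases, were made with featureCounts, per the submitters' processing notes, which name build mm39. The sources used here give no aligner, annotation release or strand setting. Reads of overlapping antisense genes may therefore not be counted apart. Both samples form 1 group, numbered as labelled.

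CPM used the total of all counts. SD is over the 2 libraries. Log2 ratios between libraries used counts plus 0.5. Ratio intervals are exact (Clopper-Pearson, 95%) and cover counting error only, not spread between libraries or animals. The reads carry no molecular identifiers, so this counting error is that of reads, not of molecules. Genes were called at an adjusted p under 0.05 and detected at 1 CPM in both libraries. edgeR's quasi-likelihood test cannot be fitted to 1 library against 1. The binomial and edgeR exact tests were run on simulated data as a check of the code. The simulations did not have the spread between these libraries, so they do not bear on the calls made here. The members and lists were chosen with earlier results of these data known. Named are all members, the 3 highest and the lowest gene per length of each pathway list and called genes beyond a log2 ratio of 1 at 1 CPM or more, and the 2 highest of each cell type list. Furin, Tagln and Trac were named after their values were seen. GENCODE M21 (GRCm38) gave transcript lengths, and no coordinates of build mm39 are given. Software was Python 3.11.15, scipy 1.17.1, R 4.3.3, edgeR 4.0.16 and DESeq2 1.42.0. Alternatives were TMM, DESeq2 size factors and junction-gene scaling, no count filter, TPM, no length scaling and each library alone. The use of GENCODE lengths was chosen after seeing the data.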

Additional observations from a re-analysis of the deposited data

How the results depend on the processing

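The 4 members with log2 ratios of 0.48 to 0.64 kept their direction and their call under the 3 other scalings and without the count filter. In edgeR's exact test their log2 ratios were the same to 2 decimals and none was called; that test has no spread independent of the 2 libraries it compares. Scaled to the junction genes, 10 members were higher and 0 lower in replicate 1, and Tgfb1, Tgfbr2 and Smad7 turned to 0.32, 0.30 and 0.34. Over all genes that scaling gave 14537 higher and 777 lower. In edgeR's exact test 0 members were higher and 0 lower, and 51 genes were higher and 18 lower. Smad2 turned to -0.0653 with TMM and -0.0717 with DESeq2 size factors, where Smad3 and Smad4 lost their call at 0.05 and 0.06 with TMM and at 0.04 and 0.06 with DESeq2 size factors. Smad3 over Smad2 turned to -0.87 without length scaling and -0.20 with GENCODE lengths. With the same settings, ligands over receptors gave -1.78 and -0.36, and Smad2 with Smad3 over Smad7 gave 2.50 and 1.85. Of the 10 members, 5 kept their rank without length scaling, 3 with GENCODE lengths and 6 to 8 in a single library. The changes with library scaling and with gene length follow from the factors used. The cause of the other changes was not tested. No paired analysis was possible because the series holds 1 group. The depth behind Tgfb2, 418 counts in replicate 2, gives the widest interval of the ratio among the members that were called.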

Other observations

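The deposited gene lengths, on which the levels per length rest, differed from GENCODE M21 for some members. Smad4 had 7628 deposited bases, against 3384 for its longest GENCODE transcript, and Tgfb2 8523, against 5116. Tgfb1 had 2197 deposited bases, against 2573, and the GENCODE exons of Tgfb1 joined over 5 transcripts span 5042 bases. Tgfb3 (3385 against 3383) and Tgfbr3 (6090 against 6087) were nearly equal.

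GENCODE M21 places exons of other genes on the opposite strand over Tgfb2 (Gm29491, 124 bases shared) and Tgfb3 (Gm37804 and Gm48008, 163 and 257 bases), and on the same strand over Tgfbr3 (Gm43422, 297 bases). None of these symbols was matched in the deposited tables.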
